A study of Arabidopsis thaliana with 3 samples.

Results

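The genes described here are nuclear genes for antenna proteins, photosystem subunits and the small subunit of Rubisco in Arabidopsis thaliana. They are 40 genes chosen by name, 15 LHCB, 6 LHCA, 4 RBCS, 5 PSB and 10 PSA genes, out of 27444 nuclear protein-coding genes. GRF5 belongs to the growth-regulating factors, plant transcription factors that promote organ growth, and its binding to root genomic DNA was tested by DAP-seq (DNA affinity purification sequencing). In this assay a purified protein recovers sheared, naked DNA in the test tube. The series text also uses these library names for a chromatin immunoprecipitation, and the assay is taken here from the protocols of the samples. If it was DAP-seq as they say, neither the expression of these genes nor the occupancy of GRF5 in cells was measured. The series comprised 2 GRF5 libraries, called replicates 1 and 2, and 1 input library without pull-down. Root DNA came from wild-type Col-0 seedlings held on 0.2 mM nitrate for 3 days, while the label of the input library gives its treatment as control. The GRF5 protein was His-tagged, made in Escherichia coli and recovered with an antibody against GRF5. No pull-down lacking GRF5 was analysed here, and the labels leave unstated if each replicate had its own protein or DNA preparation, so the spread between the libraries may be technical.

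Photosynthetic light capture starts in antenna proteins that carry chlorophyll. LHCB proteins feed photosystem II, where water is oxidised behind a shield of the lumenal PSBO, PSBP and PSBQ proteins, and LHCA proteins feed photosystem I, built in part from PSA subunits. Rubisco, whose small subunit is encoded by RBCS genes, fixes carbon dioxide with the products of the light reactions. These nuclear genes are known as light-induced genes of green tissue, and roots use them little.

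A peak is a stretch in which fragments of a GRF5 library piled up above the input, as called by the authors in each replicate against the same input. Its fold enrichment is the authors' ratio of the pileup at the summit to the local background, and its −log10 q is the caller's significance after multiple testing. A peak was called shared when a peak of each library overlapped the other over 50% or more of the shorter. A member had a shared promoter or gene-body peak when both lists annotated the shared peak to that region of that gene, the gene body being coding exons, introns and non-coding exons. Coordinates are 1-based on TAIR10, and those of a shared peak are its bounds in replicate 1. All 40 members were in the gene table as nuclear protein-coding genes, and 25 of them (62.5%) had a peak in at least 1 list, against 78.8% of all nuclear protein-coding genes. The libraries had similar depth as far as pileups show it, with a median of 85 fragments at the summit of a nuclear peak in replicate 1 and 81 in replicate 2.

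GRF5 peaks were about as frequent in the promoters of these photosynthesis genes as in promoters at large, and they were seldom found over the genes themselves. A shared promoter peak was present at 13 of the 40 members (32.5%), against 35.2% of all nuclear protein-coding genes. A shared peak in any region was present at 15 members (37.5%), against 54.4%. A shared gene-body peak was present at 3 members (7.5%), LHCA6, PSAK and PSAL, against 32.2%. Single lists gave the same picture. A promoter peak was present at 19 members in replicate 1 (47.5%, background 50.3%) and at 17 in replicate 2 (42.5%, background 48.1%), and a peak in any region at 21 (52.5%, background 70.0%) and 20 (50%, background 68.2%). The gene-body count was 5 members in replicate 1 (background 45.1%) and 6 in replicate 2 (background 43.2%). Gene length, on which the chance of holding a peak depends, was not used here. These are shares of a chosen list beside a background, with no test between them.

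Where members had a promoter peak, its fold enrichment was near that of other genes. The median over the 13 members of the mean fold enrichment of the strongest shared promoter peak was 1.89, and over all 9670 genes with such a peak it was 1.90. Of the members, 6 lay above and 7 below the median of all genes, 3 lay above the upper quartile of 2.09 and 5 below the lower quartile of 1.76. LHCB1.1 and LHCB1.3, both above the upper quartile, have the same strongest peak, which is thus counted for each. The members ran from 1.53 at PSAF to 2.22 at LHCB7. A mean of at least 3-fold was reached by 145 of the 9670 genes and by none of the 13 members. Such peaks were rare, so their absence among so few genes says little. No peak at a member reached 3-fold in either list, in which 1.29% of nuclear peaks did so in replicate 1 and 1.29% in replicate 2. The highest value at a member was 2.45 in replicate 1, above 95.2% of the nuclear peaks of that list, and 2.25 in replicate 2, above 89.0%.

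**Figure D1:**
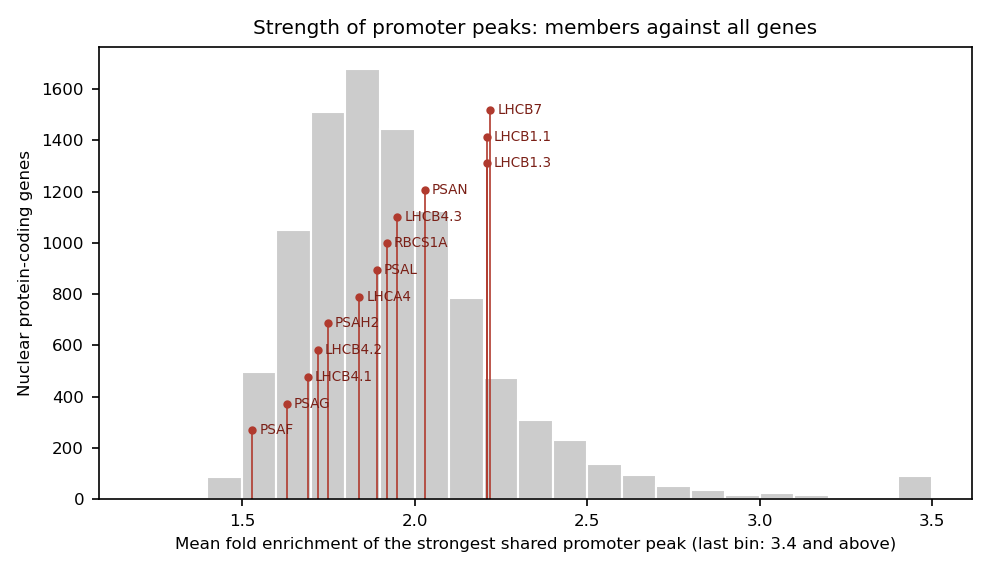
Grey bars count all nuclear protein-coding genes by the mean fold enrichment of their strongest promoter peak shared by both libraries (x axis, ratio to input; last bin holds all higher values), and red stems mark the 13 members, at heights that only separate the names. The members spread from 1.53 to 2.22 across the bulk of the distribution, whose median is 1.90, and none lies in its upper tail. The stems of LHCB1.1 and LHCB1.3 stand for the same peak.

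The number of members with peaks varied between the groups. Shared promoter peaks were found at 6 of 15 LHCB genes (40%), 1 of 6 LHCA genes (16.7%), 1 of 4 RBCS genes (25%), 0 of 5 PSB genes and 5 of 10 PSA genes (50%), beside 35.2% of all genes. In any region they were found at 6 LHCB (40%), 2 LHCA (33.3%), 1 RBCS (25%), 0 PSB and 6 PSA genes (60%), beside 54.4%. With so few genes per group, and with tandem copies that share a peak among them, the order of the groups is a description of these genes only.

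**Figure D2:**
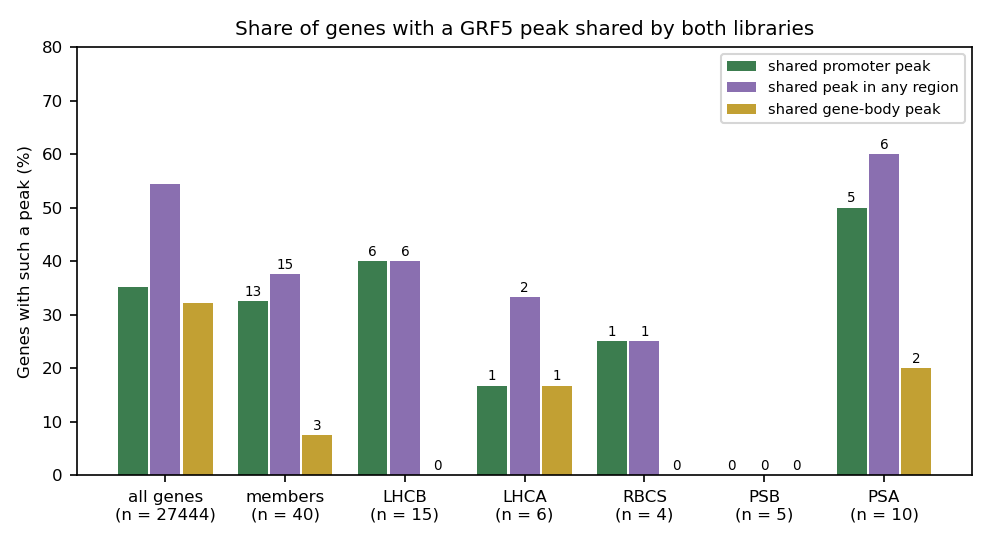
Bars give the percentage of genes with a GRF5 peak shared by both libraries in the promoter, in any region and in the gene body, for all nuclear protein-coding genes, all members and each group, with the number of genes above each bar of the members. The promoter bar of the members (32.5%) stands near that of all genes (35.2%), the gene-body bar is lower (7.5% against 32.2%), and the PSB group has no bar.

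The LHCB1 genes encode the most abundant proteins of the trimeric antenna of photosystem II, and 3 of them lie in tandem on chromosome 1. LHCB1.1 (AT1G29920) and LHCB1.3 (AT1G29930) shared both of their promoter peaks, since the authors annotated each peak to the promoters of both genes. The stronger peak, at chr1:10477217-10477683, was enriched 2.45-fold in replicate 1 and 1.97-fold in replicate 2 (mean 2.21 ± 0.343, SD, n = 2), with −log10 q values of 13.0 and 6.22. The other, at chr1:10475977-10476294, had 2.26- and 1.82-fold enrichment. Both peaks were higher in replicate 1 than in replicate 2, by 0.32 on the log2 scale in each case. The third gene of the tandem, LHCB1.2 (AT1G29910), had no peak in either list. LHCB1.4 (AT2G34430) and LHCB1.5 (AT2G34420), neighbours on chromosome 2, had a common promoter peak in replicate 2 alone, at chr2:14523533-14523802 with 2.09-fold enrichment, which also lay over the non-coding RNA gene AT2G08665. The coding sequences of these copies are nearly alike, and how reads that map to several copies were treated is not given in the sources used here, so the assignment of signal within each tandem is uncertain.

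The LHCB2 and LHCB3 genes, whose products form trimers with LHCB1, had no shared peak. LHCB2.2 (AT2G05070) had a 1.38-fold promoter peak in replicate 2 alone, with a −log10 q of 1.46, and LHCB2.3 (AT3G27690) a 1.59-fold peak in replicate 1 alone. LHCB2.1 (AT2G05100) and LHCB3 (AT5G54270) had no peak in either list.

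The 3 LHCB4 genes encode the monomeric antenna protein CP29 between the trimers and the photosystem II core. All 3 carried shared promoter peaks, beside 35.2% of all genes. At LHCB4.3 (AT2G40100) these were a pair, at chr2:16745451-16745814 with 2.05- and 1.85-fold enrichment (mean 1.95 ± 0.14, SD, n = 2) and at chr2:16744494-16745031 with 2.09- and 1.76-fold. No other gene was annotated to either, and replicate 2 had a further 1.86-fold peak over an LHCB4.3 intron. LHCB4.2 (AT3G08940) also had 2 shared promoter peaks, at chr3:2716896-2717227 with 1.45- and 1.99-fold and at chr3:2716100-2716467 with 1.57- and 1.36-fold. The libraries put these LHCB4.2 peaks in opposite order, so which is the stronger cannot be told. Both lay within exons and introns of the neighbour AT3G08930, a gene of an LMBR1-like membrane protein. LHCB4.1 (AT5G01530) had a shared peak at chr5:207537-208019 with 1.81- and 1.57-fold enrichment, over coding sequence of AIRP2, which encodes a RING-type protein. It had a second, 1.49-fold peak in replicate 1 alone. Of the 3 genes, only LHCB4.3 had a shared promoter peak with a −log10 q of at least 5 in both lists. The LHCB4.2 peak at chr3:2716896-2717227 had a −log10 q of 2.08 in replicate 1 and 7.43 in replicate 2. The other LHCB4.2 peak had 3.28 and 1.45, and the shared LHCB4.1 peak 5.25 and 2.65. The other monomeric antenna genes, LHCB5 (AT4G10340, CP26) and LHCB6 (AT1G15820, CP24), had no peak in either list.

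LHCB7 (AT1G76570), a member of the family distinct from the major antenna genes, had the highest mean among the members. Its peak, at chr1:28726393-28727834, reached 2.2-fold in replicate 1 and 2.25-fold in replicate 2 (mean 2.22 ± 0.0406, SD, n = 2), with −log10 q of 9.64 and 9.86. It was the only member with a shared promoter peak of at least 2-fold in both lists, 2.5% of the members against 8.34% of all genes. It exceeded the strongest promoter peaks of 86.1% of genes that had one, and the LHCB1.1 and LHCB1.3 peak those of 85.2%. The means of LHCB7 and of that LHCB1 peak differed by less than the gap between the libraries at the LHCB1 peak. This broad peak, 1442 bp wide in replicate 1 and 1571 bp in replicate 2, also covered exons and introns of AT1G76550, a phosphofructokinase family gene, and the promoter of CP12-3, whose relatives encode redox regulators of Calvin cycle enzymes.

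**Figure D3:**
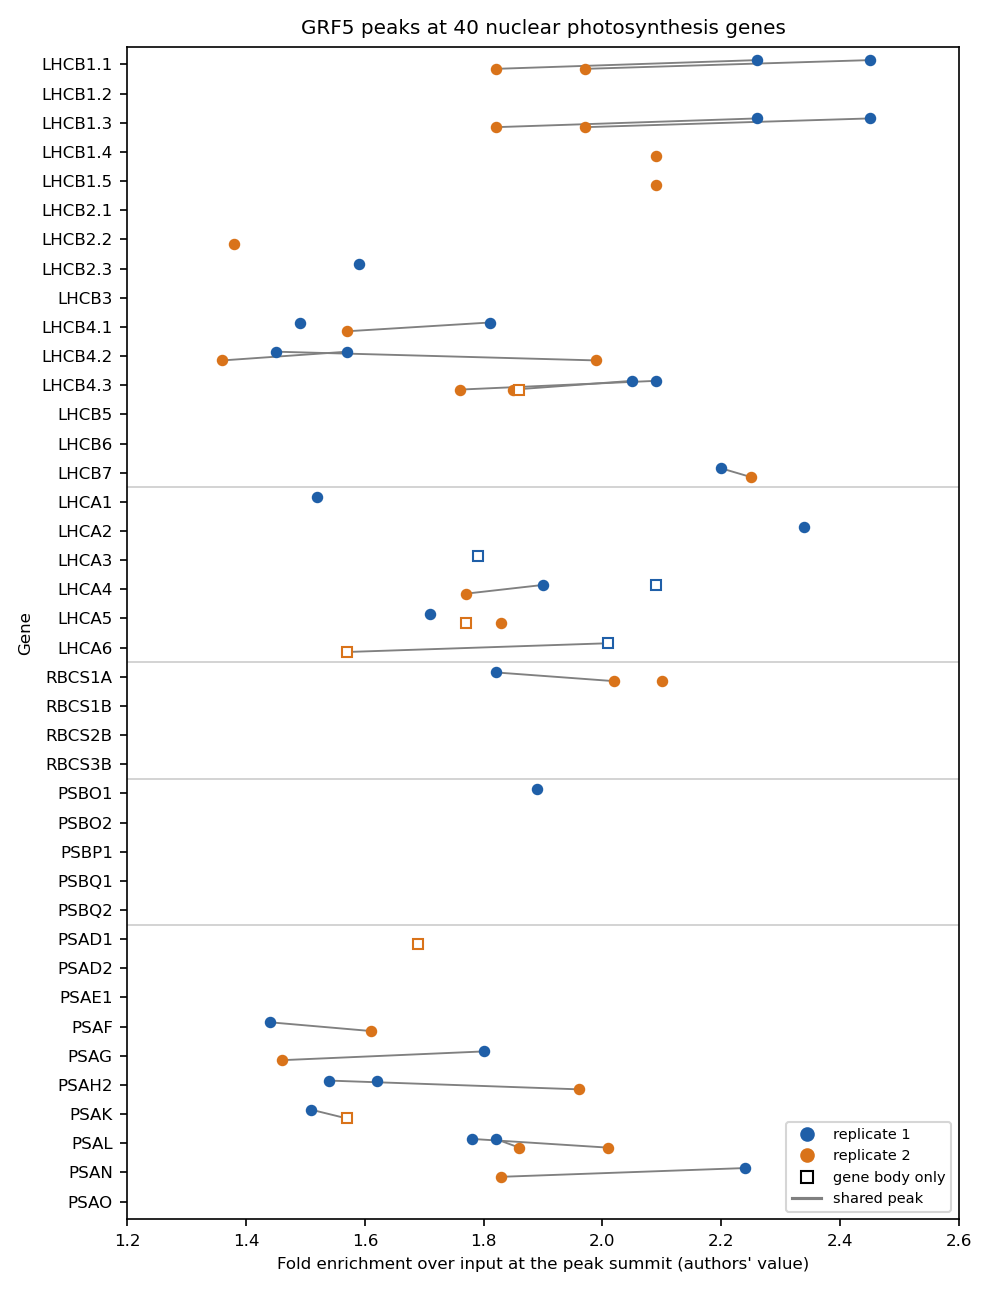
Each symbol is a GRF5 peak annotated to a member (y axis) at its fold enrichment over input (x axis), blue for replicate 1 and orange for replicate 2; filled circles include the promoter, open squares lie over the gene body only, and grey lines join the peaks of a shared pair. All values lie between 1.36 and 2.45, and 15 of the 40 genes have no symbol, among them RBCS1B, RBCS2B and RBCS3B and all PSB genes but PSBO1.

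The LHCA genes encode the antenna of photosystem I, and LHCA5 and LHCA6 the linkers that join photosystem I to the NDH complex of cyclic electron flow. A peak in any region was present at 6 of the 6 genes in replicate 1 (background 70.0%), at 3 in replicate 2 (50%, background 68.2%) and as a shared peak at 2 (33.3%, background 54.4%). LHCA4 (AT3G47470) had the only shared promoter peak, at chr3:17496534-17496866 with 1.90- and 1.77-fold enrichment, over coding sequence of AT3G47480, a calcium-binding EF-hand gene, and the promoter of AT3G47490. LHCA6 (AT1G19150) had a shared peak over its own exon and intron, at chr1:6613713-6614158 with 2.01- and 1.57-fold, which was also annotated to the promoter of AT1G19140, a COQ9-like gene of ubiquinone synthesis.

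The other LHCA genes had no peak annotated to them as shared. LHCA2 (AT3G61470) had a promoter peak in replicate 1, at chr3:22743056-22743576 with 2.34-fold enrichment. Replicate 2 had a 2.03-fold peak inside the same interval, which its list gave to the promoter of the neighbour BRH1, a brassinosteroid-responsive RING-H2 gene, and not to LHCA2. A similar case was a 2.09-fold coding peak of LHCA4 in replicate 1, whose partner in replicate 2, with 1.92-fold, was annotated to the neighbour ATSMC2 only. LHCA5 (AT1G45474) had promoter peaks of 1.71- and 1.83-fold with 132 bp in common, or 32.5% of the shorter peak. It was the only member (2.5%, against 2.91% of all genes) with promoter peaks in both lists of which none was shared. LHCA1 (AT3G54890) had a 1.52-fold promoter peak and LHCA3 (AT1G61520) a 1.79-fold coding peak, both in replicate 1 alone.

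Of the Rubisco small subunit genes, RBCS1A (AT1G67090) alone had peaks. Its shared promoter peak, at chr1:25051526-25051949, had 1.82- and 2.02-fold enrichment (mean 1.92 ± 0.139, SD, n = 2), but the summits lay 552 bp apart and the peak was 424 bp wide in replicate 1 and 887 bp in replicate 2. It was annotated to the promoter of LBD40 too, a gene of the LOB domain family. Replicate 2 had a further RBCS1A promoter peak, at chr1:25049863-25050146 with 2.1-fold enrichment. RBCS1B (AT5G38430), RBCS2B (AT5G38420) and RBCS3B (AT5G38410), which lie in tandem on chromosome 5, had no peak in either list. The nearest protein-coding genes on both sides of this tandem, named here after their values were seen, did have shared promoter peaks. These were AT5G38400 with 1.81- and 1.65-fold enrichment and SPH8, an S-protein homologue gene, with 2.61- and 2.19-fold at chr5:15387829-15388220.

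The genes for the lumenal proteins of the oxygen-evolving complex had 0 shared peaks in 5 genes (background 54.4% in any region), and 1 of the 5 had a peak in at least 1 list (20%, background 78.8%). PSBO1 (AT5G66570), whose product stabilises the manganese cluster, had a 1.89-fold promoter peak in replicate 1 alone, at chr5:26567907-26568197. PSBO2 (AT3G50820), PSBP1 (AT1G06680), PSBQ1 (AT4G21280) and PSBQ2 (AT4G05180) had no peak in either list.

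Of the 10 photosystem I subunit genes, 6 carried a shared peak (60% in any region, background 54.4%). PSAD1 (AT4G02770), PSAD2 (AT1G03130) and PSAE1 (AT4G28750) encode the stromal proteins that dock ferredoxin. Among these, PSAD1 had a 1.69-fold coding peak in replicate 2 alone, and the others had none. PSAN (AT5G64040), which encodes a lumenal subunit, had a peak at chr5:25631273-25631600 with 2.24- and 1.83-fold enrichment (mean 2.03 ± 0.287, SD, n = 2), the highest PSA value in replicate 1 but not in replicate 2, where PSAL and PSAH2 were higher. This peak lay over coding exons and introns of the neighbour AT5G64050, which encodes a glutamate tRNA synthetase. PSAF (AT1G31330), which encodes the subunit that docks plastocyanin, had a shared promoter peak at chr1:11216641-11217085 with 1.44- and 1.61-fold, the lowest mean among the members' strongest shared promoter peaks and lower than those of all but 1.82% of genes with a promoter peak.

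PSAL (AT4G12800) and PSAH2 (AT1G52230) encode subunits on the side where the mobile antenna docks. PSAL had 2 shared promoter peaks, at chr4:7520797-7521352 with 1.78- and 2.01-fold enrichment and at chr4:7518721-7519279 with 1.82- and 1.86-fold. The first of these reached into PSAL coding sequence, and its summit was at the same base in both libraries. PSAH2 had a shared peak at chr1:19453061-19453382 with 1.54- and 1.96-fold, and replicate 1 had a further, 1.62-fold PSAH2 promoter peak over AT1G52220, annotated as a curvature thylakoid protein gene. PSAO (AT1G08380), whose product lies on the same side of the complex, had no peak in either list. PSAG (AT1G55670) and PSAK (AT1G30380) encode related membrane subunits near the LHCA antenna. PSAG had a broad shared peak, 1433 and 941 bp wide, at chr1:20803481-20804913 with 1.80- and 1.46-fold and summits 833 bp apart, so the libraries did not point to the same site within it. PSAK had a weak shared peak over its exon and intron, at chr1:10722166-10722500 with 1.51- and 1.57-fold, which only replicate 1 extended into the PSAK promoter.

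At these genes the libraries matched in shares near those of all peaks, while the median distance between paired summits was larger. Of the 27 peaks annotated to members in replicate 1, 74.1% had a partner in replicate 2, against 67.0% of all nuclear peaks, and of the 25 in replicate 2, 72.0% against 70.3%. A promoter peak in at least 1 list was found at 22 members (55%, against 60.2% of all genes) and in neither list at 18 (45%, against 39.8%). Replicate 1 alone had one at 5 members, LHCB2.3, LHCA1, LHCA2, PSBO1 and PSAK (12.5%, against 12.1%), and replicate 2 alone at 3, LHCB1.4, LHCB1.5 and LHCB2.2 (7.5%, against 9.91%). Of the 22, 59.1% had a shared one, against 58.6% of all genes with a promoter peak in at least 1 list. The members had 18 distinct shared peaks, 16 of them in promoters. Summits lay a median of 82.5 bp apart, against 52.0 bp over all 19008 shared peaks, and 9 of the 18 (50%) lay within 100 bp, against 65.2%. With this limit on summits, 8 members (20%) kept a shared promoter peak, against 24.3% of all genes. The log2 ratio of fold enrichment between the libraries had an SD of 0.25 over the 18 peaks and 0.19 over all shared peaks. The SD of the log2 mean fold among the members' strongest promoter peaks was 0.17. Neighbours in the ranking of the 13 members differed by at most 0.12 in log2 mean fold, less than the median gap of 0.21 between the libraries at a member's peak, so the order of neighbours is not resolved. The input was common to both lists, and its part in their agreement was not tested.

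**Figure D4:**
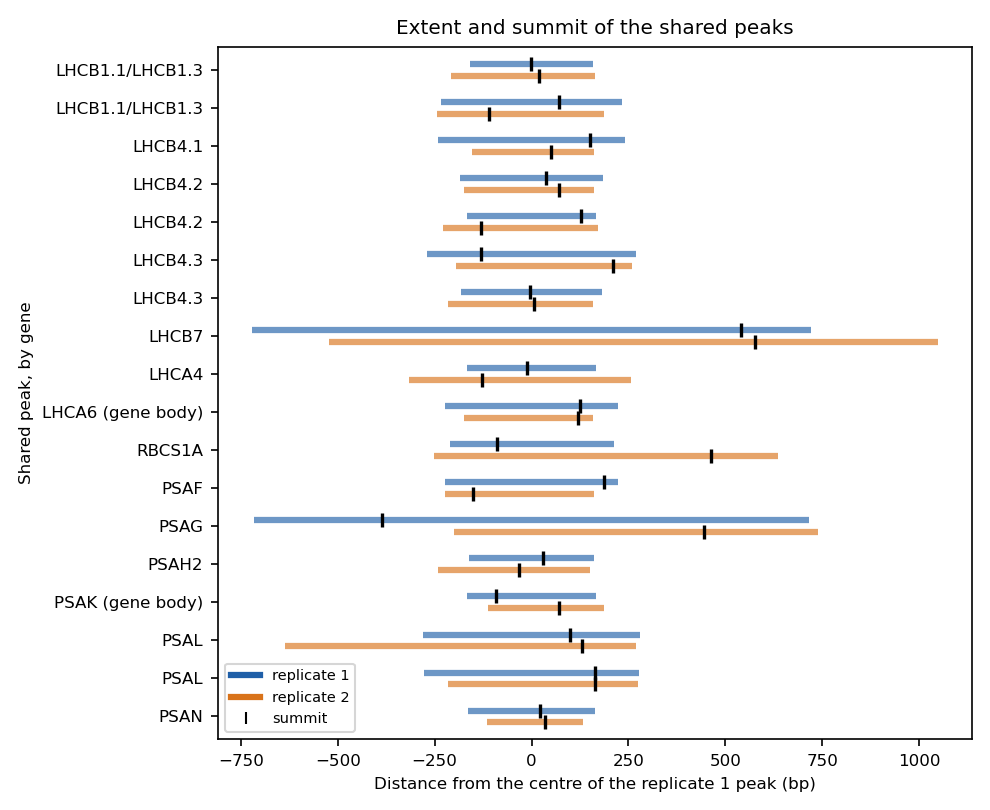
Bars show the extent of each of the 18 shared peaks of members in replicate 1 (blue) and replicate 2 (orange), with black ticks at the summits, as distance in bp from the centre of the replicate 1 peak. Summits lie within 100 bp of each other in 9 of the 18 pairs, as at LHCA6, and those at RBCS1A and PSAG are 552 and 833 bp apart.

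Most promoter peaks of the members were not theirs alone. Of their 16 distinct shared promoter peaks, 9 (56.2%) also lay over a gene body, of a neighbour in all cases except the PSAL peak that reached PSAL coding sequence, against 50.2% of the 8829 shared promoter peaks of all genes. The promoters of several protein-coding genes were annotated to 7 of the 16 (43.8%), against 20.4%, among them both LHCB1 peaks, which join members of the list. A peak in several promoters has more chances to touch a member, while the 20.4% counts each peak once. These shares are therefore not directly comparable. Counting only peaks annotated to a single gene's promoter in both lists, 6 members (15%) and 19.5% of all genes had one. More than 1 shared promoter peak was found at 5 members, LHCB1.1, LHCB1.3, LHCB4.2, LHCB4.3 and PSAL (12.5%), against 3.88% of all genes. As LHCB1.1 and LHCB1.3 share theirs, these 5 members stand for 4 places in the genome.

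Among the 15 members with no peak in either list (37.5%, against 21.2% of all genes) were LHCB1.2, LHCB2.1, LHCB3, LHCB5, LHCB6, 3 RBCS genes, 4 PSB genes, PSAD2, PSAE1 and PSAO. Their surroundings were not empty. Skipping other members without a peak, 26 distinct protein-coding genes lay next to them, the members LHCB1.1 and LHCB2.2 among these. Of the 26, 14 (53.8%) had a shared peak in some region, close to the 54.4% of all genes. The absence of a called peak does not show that GRF5 did not bind there, since fragment counts outside peaks were not used.

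Other nuclear genes of photosynthesis were taken in lists of related pathways. All lists but chlorophyll synthesis lay a little below the background of 35.2% for a shared promoter peak, at 30.8% to 33.3%. Of 14 chlorophyll synthesis genes, 10 (71.4%) had a shared promoter peak, the strongest being CRD1, a gene of the cyclase step that forms the fifth ring of chlorophyll, with 2.41- and 2.49-fold enrichment, and PORA, a protochlorophyllide oxidoreductase gene, with 2.01- and 2.64-fold. The median over these 10 genes was 1.79, below the 1.90 of all genes. Calvin cycle genes were at 4 of 13 (30.8%), led by GAPA-2, a glyceraldehyde-3-phosphate dehydrogenase gene, with 1.98- and 2.37-fold and PRK, the phosphoribulokinase gene, with 2.04- and 1.90-fold. Electron transport and ATP synthase genes were at 4 of 12 (33.3%), led by the ferredoxin gene FD1 with 2.11- and 2.23-fold and the plastocyanin gene DRT112 with 2.02- and 2.2-fold. Other nuclear photosystem subunit genes were at 3 of 9 (33.3%), with PSBTN at 1.75- and 1.87-fold and PSBR at 1.62- and 1.87-fold. Regulators of photosynthesis genes were at 4 of 13 (30.8%), led by the plastid signalling gene GUN1 with 2.02- and 2.05-fold and the sigma factor gene SIG2 with 2.03- and 1.85-fold. In any region, shared peaks were found at 71.4% of the chlorophyll synthesis, 53.8% of the Calvin cycle, 66.7% of the electron transport, 33.3% of the other photosystem subunit and 46.2% of the regulator genes, beside 54.4% of all genes. In gene bodies the shares were 14.3%, 30.8%, 33.3%, 0% and 30.8% in the same order, beside 32.2%. None of these lists was tested, and gene lists of this kind were also part of earlier looks at these data.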

How the data were processed

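The data are 2 peak lists, 1 per GRF5 library, each called against the same input. Reads were trimmed with Trimmomatic 0.39, aligned with Bowtie2 2.4.6 and turned into peaks with MACS2 2.2.7.1 on TAIR10, per the submitters' processing notes. Caller settings and promoter length: not given in the sources used here. Values were deposited as follows. The authors deposited the pileup signal at each summit, the fold enrichment as a ratio to the local background, and the −log10 p and −log10 q, per the file headers. Deposited positions are chromosome, start, end and summit, counted from 0 at the start, and were made 1-based. Repeated entries of a peak (87571 and 82807 in all) were merged into 28427 and 27133 peaks, and organelle peaks were left out of shares and medians.

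Peaks were paired one to one, longest overlap first, with Python 3.11.15, numpy 2.4.6 and pandas 2.3.3; the pairing was tested on simulated data. Region and gene are the authors' annotation. Names and biotypes were taken by locus tag from the RefSeq genes of TAIR10.1 (27953 of 27978 identifiers matched), and only its gene order was used besides. The input library's values were not used here.

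The members and related lists were chosen with earlier results of these data known. All members were described. Outside them, neighbours under a member's peak and the 2 strongest genes of each related list were named; genes next to members without a peak were named after their values were seen. No test was run, since 2 libraries of 1 group allow none between conditions. Promoter motifs, sequences and a background of similar protein length had been planned and were not analysed here. Alternatives changed the overlap, the summit distance, the peak threshold, the libraries and the promoter rule. Pileups are amplified fragments, so their precision is not that of independent molecules.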

Additional observations from a re-analysis of the deposited data

How the results depend on the processing

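Stricter peak thresholds lowered the shares of both the members and all genes. At the 2-fold threshold 1 member was left, too few to compare the shares. When peaks needed a −log10 q of 5 or more, 6 members (15%, against 16.8% of all genes) had a shared promoter peak. A shared peak in any region was then present at 6 members (15%, against 28.2%) and a shared gene-body peak at 0 (against 15.5%). The median fold of the strongest promoter peak was 2.12 in members and 2.09 in all genes. When peaks needed a 2-fold enrichment, 1 member (2.5%, against 8.45% of all genes) had a shared promoter peak. A shared peak in any region was then present at 1 member (2.5%, against 14.4%) and a shared gene-body peak at 0 (against 7.35%). The median fold was 2.22 in members, which is the value of that 1 member, and 2.26 in all genes. With summits at most 100 bp apart, 8 members (20%, against 24.3% of all genes) had a shared promoter peak. A shared peak in any region was then present at 9 (22.5%, against 39.4%). With peaks in a single gene's promoter only, 6 members (15%, against 19.5% of all genes) had one. Leaving out a replicate gave 17 to 19 members with a promoter peak, 20 to 21 with a peak in any region and 5 to 6 with a gene-body peak; fewer libraries have to hold the peak, by construction. Counting tandem copies once left 12 of 35 places (34.3%) with a shared promoter peak, and no such share was made for all genes. Of 56 alternatives, for the members' values and the shares of all genes together, 36 stayed within limits. The limit was 1.5 times the value reported or, for the median fold, the spread between libraries. The alternatives for gene bodies were chosen after the data were seen. No paired analysis was possible because the replicates form a single group with 1 shared input. A background of genes of similar protein length was not run. Depth is known only through pileups, and its effect on which peaks were called was not tested.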

Other observations

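Photosynthesis genes of the plastid genome, left out of the shares above, gave another picture of the same lists. All of rbcL, psaA, psaB, psbA, psbD, psbC and psbB, which encode the large subunit of Rubisco and core proteins of both photosystems, had a shared peak annotated to them, as did 70 of the 85 plastid protein-coding genes (82.4%). The plastid peaks numbered 53 in replicate 1 and 50 in replicate 2, with median summit pileups of 14604 and 13994 fragments, against 85 and 81 at nuclear peaks. Their fold enrichment was modest, with medians of 1.59 and 1.62. The strongest of the 7 genes were psaA, with 1.72- and 1.74-fold, and psbA, with 1.68- and 1.70-fold, and the weakest was rbcL, with 1.3- and 1.33-fold. At these 7 genes the fold enrichments of the libraries differed by at most 0.04.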
